A study of Homo sapiens with 4 samples.

Results

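FSCN1 encodes fascin, which packs actin filaments into tight parallel bundles. It was described here together with 8 genes for other proteins that bundle or cross-link actin: PLS1, PLS3, EPS8, VIL1, ACTN1, ACTN4, LIMA1 and FLNA. These 9 genes were found by symbol among the 19974 gene rows of each library. FSCN1 was selected on its lower level in si-152 cells in these same 4 libraries, so its values are a description and carry no test. The 8 relatives were selected for their known function, and the question was whether FSCN1 was lower alone or together with them. HCT116, an established human colon cancer cell line, was transfected for 36 h with 100 nM of a control non-targeting siRNA (si-NC, 2 libraries) or with 100 nM of siRNA against the long noncoding RNA LINC00152 (si-152, 2 libraries). The 2 replicates of a group were independent platings of this 1 cell line. LINC00152 itself was not analysed here, so the extent of its suppression in these libraries was not checked. All cells received siRNA, and the sequences of the siRNAs were not used here.

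Actin filaments become load-bearing structures only when other proteins tie them together. Fascin and the plastins form the tight parallel bundles of filopodia and microvilli, villin adds to the bundles of the intestinal brush border, the alpha-actinins hold filaments in looser antiparallel bundles at adhesions and stress fibers, and filamin joins crossing filaments into networks. Normal colon epithelium has little fascin, and carcinoma cells that move and invade often have more.

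The files name no unit, and their values were taken as FPKM, fragments scaled to transcript length and to library size, so levels of different genes can be set side by side within a library. The FPKM summed to between 424754 and 534311 per library, and 14589 to 14686 genes were above 0. The read depth was unknown. Of 10 colon epithelial markers, EPCAM, CDH1, KRT8, KRT18, KRT19 and CDX2 were expressed, KRT20, CDX1 and LGALS4 were listed at 0 in all 4 libraries, and VIL1 was near 0. The summed level of these markers was 3026 and 3529 FPKM in si-NC against 2386 and 2972 FPKM in si-152. Most of this sum was KRT8, KRT18 and KRT19. The groups overlapped for KRT19, EPCAM, CDH1 and CDX2, but not for KRT8 and KRT18. The part of the gap between the sums in the results was not tested. The 8 fibroblast markers summed to 7.11 to 8.13 FPKM, almost all of it COL1A1, with 4 of them at 0 in every library. The 7 leukocyte markers summed to 7.10 to 11.9 FPKM. Most of this was HLA-DRA (3.64 to 8.70 FPKM) and CD68 (2.73 to 3.47 FPKM), whereas PTPRC was at 0. The 4 endothelial markers summed to 0.206 to 0.322 FPKM. Differences were tested with limma on log2(FPKM + 1) over the 11222 genes that reached 1 FPKM in 2 or more libraries, and p-values were adjusted over all of them with the Benjamini-Hochberg method. Of these genes, 2, or 0.0178%, had an adjusted p under 0.05. Neither was an actin bundler: HNRNPC, a splicing factor that every cell uses, read 0 FPKM in si-NC replicates 1 and 2, whereas si-152 gave 288.7 and 318.5 FPKM, and PSMC4, a proteasome subunit, read 8.69 and 19.1 FPKM against 0.562 and 1.33 FPKM. An exact 0 for a gene that every cell uses can be a failed estimate, so the call of HNRNPC, and with it the count of 2, is uncertain. This pair was chosen after its values were seen.

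FSCN1 measured 78.4 FPKM in si-NC replicate 1, 80.8 FPKM in si-NC replicate 2, 31.0 FPKM in si-152 replicate 1 and 39.0 FPKM in si-152 replicate 2. The means were 79.6 ± 1.72 FPKM (SD, n = 2) and 35.0 ± 5.67 FPKM (SD, n = 2). Both si-152 libraries lay below both si-NC libraries with a wide gap, and si-152 replicate 1 was the lowest. The fitted difference was -1.17 on the log2(FPKM + 1) scale (SE 0.177). Between the libraries numbered 1 it was -1.31, and between those numbered 2 it was -1.03. The labels do not say whether a shared number marks anything more than a name. Leaving out each library in turn gave -1.33 to -1.01. In bulk RNA, fewer cells that express FSCN1 and less FSCN1 RNA per cell cannot be told apart.

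The gene lies on chromosome 7 at chr7:5592823-5606655 of GRCh38 on the plus strand, and its longest annotated 3′ UTR is 1181 bases in the last of 5 exons (GENCODE v29), with a GC content of 62.6%. The study examined microRNAs as a link between LINC00152 and this UTR, so the seed matches are shown here. Below are the mature sequences of both microRNAs that the RefSeq table held (GRCh38.p14), with the seed, bases 2 to 8, in capitals. The first is encoded at chr22:20033188-20033209 on the plus strand and the second at chr16:88716315-88716337 on the minus strand. The study also named miR-632, whose sequence was not used here. It reported that miR-185-3p or miR-632 lowered the activity of a reporter with the wild-type FSCN1 3′ UTR, but not with a mutated one. It also examined miR-4722-5p, and left it aside because its level was alike in tumor and matched adjacent tissue.
miR-185-3p: aGGGGCUGgcuuuccucugguc
miR-4722-5p: gGCAGGAGggcugugccagguug

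The 7 bases complementary to the miR-185-3p seed, CAGCCCC, occurred 5 times in the FSCN1 UTR on the transcribed strand, and the first 4 are shown with 8 bases on either side. The last window ends with the annotated transcript. Capitals mark the match.
FSCN1 chr7:5605879-5605901: cctcctccCAGCCCCccaggaga
FSCN1 chr7:5606026-5606048: gctggaaaCAGCCCCtctcccac
FSCN1 chr7:5606331-5606353: gtgcatctCAGCCCCctctttcc
FSCN1 chr7:5606358-5606380: ttcccgtcCAGCCCCagccctgg
FSCN1 chr7:5606640-5606655: tcagtctgCAGCCCCa

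The match to miR-4722-5p, CTCCTGC, occurred once, 39 bases into the UTR. The word GACTGGA, which an earlier analysis of these libraries had picked out, also occurred once. Its presence supports nothing, because the same libraries brought it up.
FSCN1 chr7:5605505-5605527: catggcggCTCCTGCcaaccctc
FSCN1 chr7:5606194-5606216: cctagcctGACTGGAagcagaaa

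Of the 8 relatives, ACTN4 and FLNA held miR-185-3p matches. ACTN4 held 4 in a UTR of 2151 bases (exon 21 of 21, plus strand) and FLNA held 2 in a UTR of 323 bases (exon 48 of 48, minus strand). They are shown, as read along the transcript, because their levels can be set against those of FSCN1.
ACTN4 chr19:38729477-38729499: ggcctgggCAGCCCCacagtccc
ACTN4 chr19:38729900-38729922: gacccaccCAGCCCCtctcccct
ACTN4 chr19:38730030-38730052: catcccacCAGCCCCggccttgc
ACTN4 chr19:38731413-38731435: gactaagaCAGCCCCgaccccat
FLNA chrX:154348812-154348834: ccagccggCAGCCCCcaagcctg
FLNA chrX:154348783-154348805: tacccaagCAGCCCCgccctctt

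PLS1, PLS3, EPS8, VIL1, ACTN1 and LIMA1 held no CAGCCCC in UTRs of 716 to 3959 bases, whose GC content was 30.4% to 40.5%. ACTN1, ACTN4 and VIL1 each held 1 CTCCTGC, and VIL1 held GACTGGA 2 times. Of the 10757 tested genes with an annotated 3′ UTR, 21.8% held CAGCCCC, 26.5% held CTCCTGC and 11.7% held GACTGGA. Among the 1187 of them with a UTR of 1000 to 1400 bases, close to that of FSCN1, the shares were 21.4%, 21.6% and 9.86%. At least 5 CAGCCCC were present in 52 genes, or 0.483%. In these 52 genes the median UTR length was 4241 bases and the median UTR GC content was 57.1%. None of these shares was matched to FSCN1 for GC content. A match is a description of letters in the annotated UTR and does not show that a microRNA binds there.

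**Figure D1:**
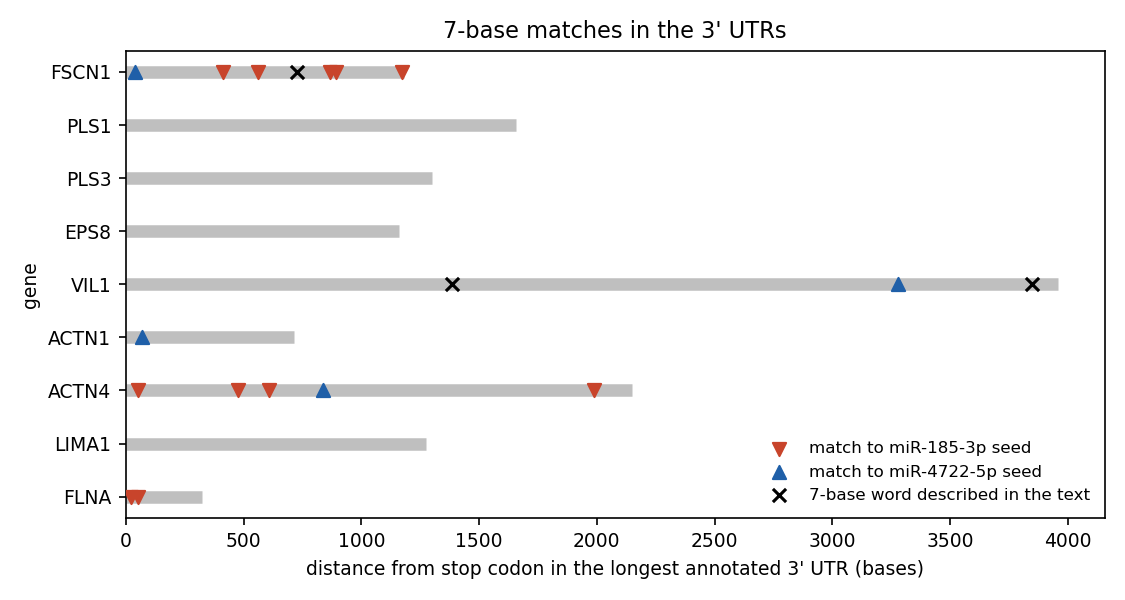
Each grey bar is the longest annotated 3′ UTR of a gene, with distance from the stop codon in bases on the horizontal axis, and the symbols mark 7-base matches to the seeds of miR-185-3p and miR-4722-5p and the word GACTGGA. FSCN1 carries 5 matches to miR-185-3p, ACTN4 carries 4, FLNA carries 2 and the other 6 genes carry 0.

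The plastins bind and bundle actin through paired calponin-type domains. PLS1, the plastin of intestinal and inner ear microvilli, stood at 12.4 and 7.45 FPKM in si-NC against 10.9 and 9.71 FPKM in si-152. Both si-152 values lay between the si-NC values. The fitted difference was 0.08 (SE 0.234) on the log2(FPKM + 1) scale, with a 95% interval of -0.44 to 0.61, and its sign turned without si-NC replicate 2 (-0.25). PLS3, the plastin of most solid tissues, stood at 23.1 and 18.4 FPKM in si-NC against 20.2 and 14.6 FPKM in si-152. The groups overlapped, and the lowest value was si-152 replicate 2. Its difference of -0.25 (95% interval -0.71 to 0.21) was the most negative among the relatives, but it moved to -0.0295 without si-152 replicate 2, where ACTN4 was the most negative, and to -0.0916 without si-NC replicate 1.

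EPS8 caps and bundles actin filaments at the tips of filopodia and microvilli. It stood at 20.0 and 16.2 FPKM in si-NC against 17.5 and 14.1 FPKM in si-152. The groups overlapped, and the differences within the 2 replicate numbers were -0.18 and -0.19. The fitted difference was -0.19 (95% interval -0.61 to 0.24), and it ranged from -0.33 to -0.0399 with 1 library left out. VIL1, villin, which bundles and also severs actin in the brush border, was listed at 0 in 3 libraries and at 0.0567 FPKM in si-NC replicate 2. It did not pass the filter on low values, so no difference could be tested for it.

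ACTN1 and ACTN4 are the non-muscle alpha-actinins, which cross-link filaments at adhesions and along stress fibers. ACTN1 stood at 37.2 and 31.6 FPKM in si-NC against 42.5 and 35.3 FPKM in si-152. The groups overlapped, and the fitted difference was 0.17 (95% interval -0.23 to 0.57), with a range of 0.0423 to 0.30 when 1 library was left out. ACTN4 stood at 7.26 and 7.31 FPKM in si-NC against 5.14 and 10.5 FPKM in si-152. The 2 si-152 libraries lay on opposite sides of the si-NC libraries, with differences of -0.43 in the libraries numbered 1 and 0.46 in those numbered 2. The fitted difference was 0.02 (95% interval -0.60 to 0.63), and its sign turned when si-152 replicate 2 was left out (-0.43). ACTN4 held 4 of the miR-185-3p matches printed above.

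LIMA1, also called EPLIN, stabilizes bundled filaments at epithelial junctions. It stood at 39.6 and 32.5 FPKM in si-NC against 39.6 and 35.1 FPKM in si-152, and the fitted difference was 0.05 (95% interval -0.34 to 0.45). The groups overlapped, and the sign turned without si-NC replicate 2 (-0.0863) or si-152 replicate 1 (-0.0318). FLNA, filamin A, which links crossing filaments to each other and to membrane receptors, stood at 59.0 and 44.1 FPKM in si-NC against 68.6 and 53.5 FPKM in si-152. The values were higher in si-152 within each replicate number, by 0.21 and 0.27, but the groups overlapped. The fitted difference was 0.24 (95% interval -0.21 to 0.70), the most positive among the relatives. It moved to 0.0380 without si-NC replicate 2 and to 0.45 without si-NC replicate 1. FLNA held 2 of the miR-185-3p matches.

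**Figure D2:**
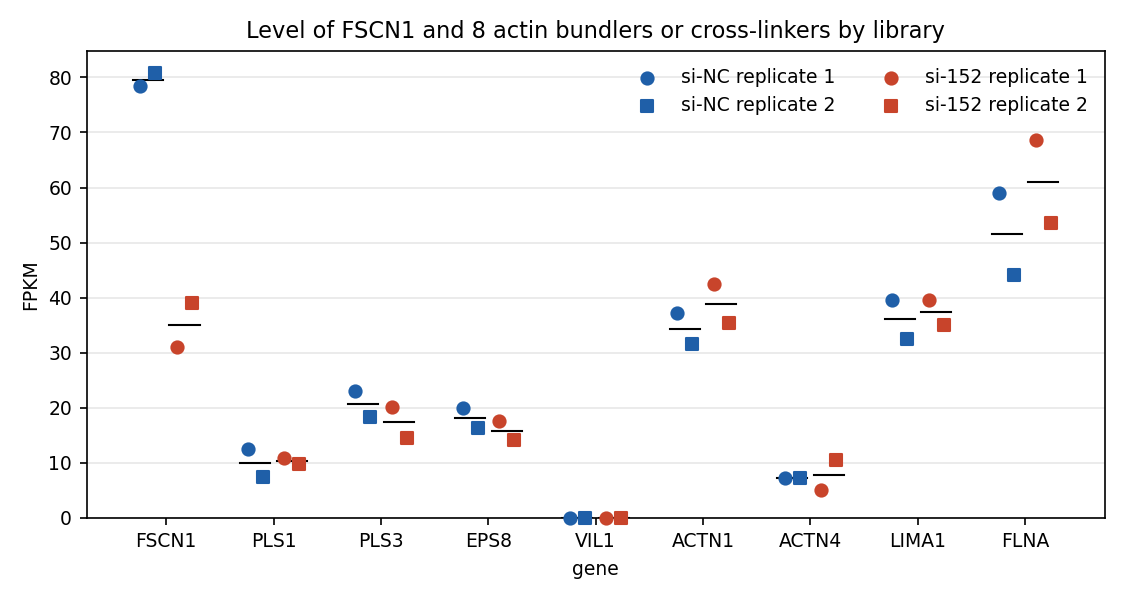
Each point is the FPKM of a gene in 1 library (vertical axis), circles are replicate 1, squares are replicate 2, and the short lines are the means of the 2 libraries of a group. The 2 si-152 values of FSCN1, 31.0 and 39.0 FPKM, lie far below its si-NC values of 78.4 and 80.8 FPKM, while for each other gene the groups overlap.

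Of the 7 relatives that passed the filter, 0 had an adjusted p under 0.05 in limma (adjusted p = 1.00 for each), and 0 had a p under 0.05 before adjustment, beside 4.38% of all tested genes. The smallest unadjusted p was 0.252, for PLS3. A looser rule asked for p under 0.05 before adjustment and a fold above 1.5. By it, the share of all tested genes called higher in si-152 was 0.597% and the share called lower was 1.06%, and 0 of the 7 relatives were called in either direction. These shares stand for 67 genes higher and 119 lower, and with every library scaled to the same summed FPKM the split turned to 120 higher and 83 lower. Both si-152 libraries lay above both si-NC libraries for 16.5% of tested genes and below them for 13.9%, and neither order occurred in any of the 7 relatives. The same direction within both replicate numbers was seen in 4 of the 7 relatives and in 63% of tested genes. The median difference of the 7 relatives was 0.05, with 5 positive and 2 negative, beside a median of 0.02 over all tested genes.

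The precision of 2 libraries per group limits what can be said of the relatives. The intervals of ACTN1 and LIMA1 lay within a 1.5-fold change in either direction, 0.58 on the log2 scale, and those of the other 5 relatives did not. The lowest bound was -0.71, for PLS3, and the highest was 0.70, for FLNA. The lower bounds of all 7 lay above the fitted difference of FSCN1, -1.17. FSCN1 was selected on that difference, so this gap was not tested. Replicate 2 was below replicate 1 for 6 of 7 relatives in si-NC and for 6 of 7 in si-152, beside 63.4% and 51.3% of all tested genes. The part of this spread in the results was not tested.

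**Figure D3:**
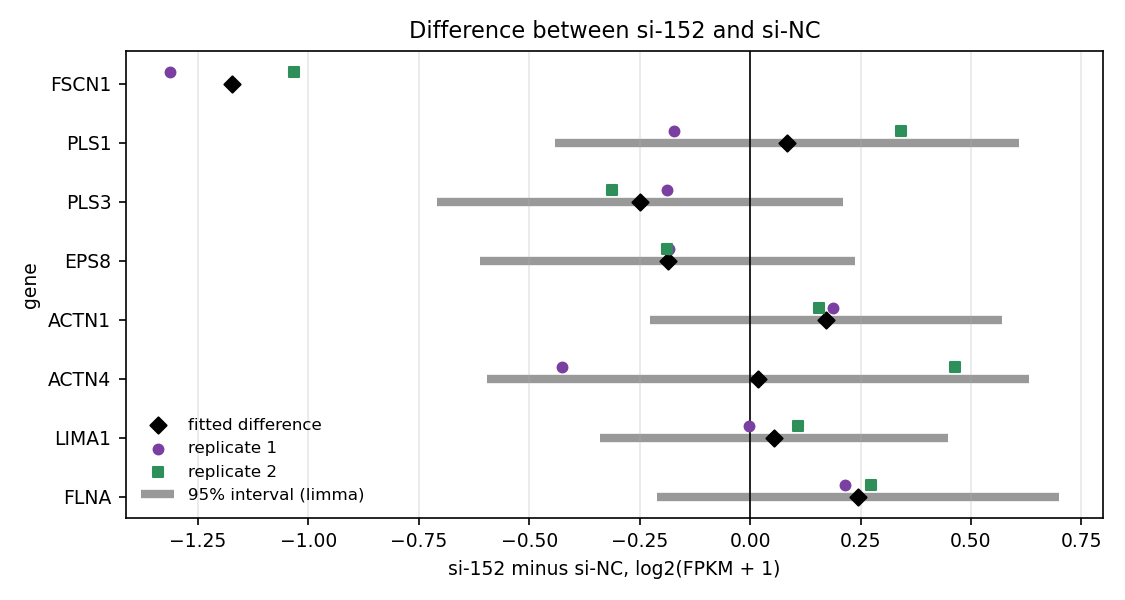
Diamonds are the fitted differences between si-152 and si-NC on the log2(FPKM + 1) scale (horizontal axis), circles and squares are the differences within the libraries numbered 1 and 2, and grey bars are 95% intervals from limma, drawn for the relatives only. FSCN1 sits at -1.17 and the relatives lie between -0.25 and 0.24.

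Ratios within a library do not depend on how the libraries were scaled to each other. FSCN1 was the highest of the 9 genes in both si-NC libraries, ranked 4 in si-152 replicate 1 and ranked 2 in si-152 replicate 2, where FLNA was highest. Its share of the summed FPKM of the 9 genes was 28.3% and 33.9% in si-NC and 13.2% and 18.4% in si-152. The 8 relatives together summed to 198.6 and 157.6 FPKM in si-NC against 204.3 and 172.8 FPKM in si-152, so the groups overlapped in this sum. The ratio of FSCN1 to FLNA was 1.33 and 1.83 in si-NC and 0.451 and 0.728 in si-152. The ratio to LIMA1 was 1.98 and 2.49 in si-NC and 0.782 and 1.11 in si-152, and the ratio to ACTN1 was 2.11 and 2.56 against 0.729 and 1.10. For PLS1, PLS3, EPS8 and ACTN4 as well, both si-152 ratios lay below both si-NC ratios. These ratios share the FSCN1 values and are not independent of each other. FSCN1 was selected on its lower level in si-152, so its lower ratios, share and rank largely follow from that selection and test nothing. Among all genes, FSCN1 was at percentile 95.7 and 95.6 of its library in si-NC and at percentile 89.3 and 90.8 in si-152.

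**Figure D4:**
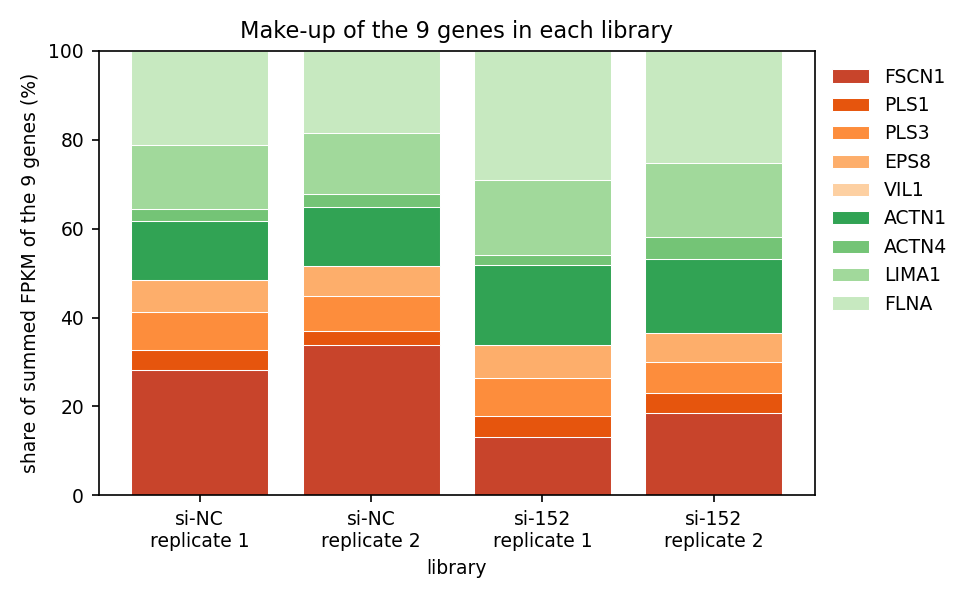
Each bar is 1 library, and the segments are the shares of the 9 genes in their summed FPKM (vertical axis, percent). The FSCN1 segment at the bottom is 28.3% and 33.9% in si-NC and 13.2% and 18.4% in si-152.

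Of 15 genes related to the 9 genes by family or by name, called paralogs here, 7 passed the filter. In limma 0 of the 7 had an adjusted or unadjusted p under 0.05, beside 0.0178% and 4.38% of all tested genes. Their median difference was 0.09. EPS8L2, an EPS8 relative, stood at 21.8 and 25.3 FPKM in si-NC against 23.8 and 28.9 FPKM in si-152 (a difference of 0.15), and EPS8L1 at 7.83 and 12.8 FPKM against 7.70 and 10.2 FPKM (-0.16). FLNC, the muscle filamin, stood at 8.03 and 6.09 FPKM against 10.4 and 7.25 FPKM (0.28). FSCN2, the fascin known from retina, was low, at 3.07 and 2.16 FPKM against 3.32 and 2.37 FPKM (0.09). LIMD1 and SVIL had differences of 0.05 and 0.18. FSCN3, LCP1, ACTN2, ACTN3, VILL, AVIL, EPS8L3 and LIMCH1 did not pass the filter, and the highest level among them was 0.886 FPKM, for AVIL. Paralogs can share reads, and how the authors' counting treated such reads is not given in the sources used here.

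A wider list of 36 other bundlers and cross-linkers had 30 genes that passed the filter. In limma 0 of them passed the adjusted threshold, 4 of the 30 had a p under 0.05 before adjustment, beside 4.38% of all tested genes, and the median difference was -0.03. Both si-152 libraries lay above both si-NC libraries in 8 of the 30 and below them in 3, beside 16.5% and 13.9% of all tested genes. SWAP70, which binds and bundles actin downstream of phosphoinositide signals, stood at 6.03 and 5.11 FPKM in si-NC against 2.91 and 2.39 FPKM in si-152. The groups did not overlap, and the difference of -0.85 (SE 0.201) had an unadjusted p of 0.00194 and an adjusted p of 0.595 in limma. CNN2, a calponin that steadies filaments, stood at 95.7 and 88.3 FPKM against 60.2 and 73.0 FPKM, a difference of -0.47 with an adjusted p of 1.00. On the other side, CTTN, cortactin, which binds branched actin at the cell edge, stood at 42.2 and 37.1 FPKM against 55.6 and 56.5 FPKM, a difference of 0.49 with an adjusted p of 0.926. MARCKS, which cross-links actin at the membrane, stood at 23.0 and 21.0 FPKM against 32.0 and 28.0 FPKM, a difference of 0.43 with an adjusted p of 1.00. These 4 genes lay 2 on each side of 0.

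The gelsolin family caps and severs filaments, and villin belongs to it. Of its 7 genes, 4 passed the filter, 0 passed the adjusted threshold and 1 of the 4 had a p under 0.05 before adjustment, beside 4.38% of all tested genes. That gene was CAPG, which caps filament ends without severing them. CAPG stood at 81.4 and 106.2 FPKM in si-NC against 45.3 and 53.0 FPKM in si-152. Both si-152 libraries lay below both si-NC libraries, an order that 13.9% of all tested genes showed. Its difference of -0.91 (SE 0.191) had an unadjusted p of 0.000878 and an adjusted p of 0.429 in limma. GSN, gelsolin itself, stood at 73.6 and 75.1 FPKM against 59.1 and 64.6 FPKM, a difference of -0.26 with an adjusted p of 1.00.

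Of 26 genes of filopodia and other protrusions, in which fascin bundles lie, 22 passed the filter. In limma 0 of the 22 had an adjusted or unadjusted p under 0.05, beside 0.0178% and 4.38% of all tested genes. The median difference was -0.03, with single genes from -0.27 to 0.28. CDC42, the GTPase that starts filopodia, stood at 114.8 and 108.0 FPKM in si-NC against 122.2 and 114.9 FPKM in si-152 (0.09). TWF2, a twinfilin that caps filaments, stood at 109.6 and 134.1 FPKM against 86.5 and 116.0 FPKM (-0.27). Of 16 microvillus and brush border genes, 9 passed the filter. Here too 0 had an adjusted or unadjusted p under 0.05 in limma, beside the same shares of all tested genes. The median difference was -0.07. EZR, ezrin, which ties microvillar actin to the membrane, stood at 435.7 and 404.4 FPKM against 430.3 and 448.6 FPKM (0.07). SLC9A3R1, an ezrin-binding scaffold, stood at 50.9 and 51.2 FPKM against 46.6 and 50.0 FPKM (-0.08).

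The last list held 21 partners and regulators of fascin, among them kinases that act on it and transcription factors reported for its gene. Of these, 20 passed the filter. In limma 0 of the 20 had an adjusted or unadjusted p under 0.05, beside 0.0178% and 4.38% of all tested genes. The median difference was 0.08, with 14 positive and 6 negative, beside 6085 positive and 5137 negative over all tested genes. CTNNB1, beta-catenin, stood at 68.7 and 65.3 FPKM in si-NC against 79.4 and 72.3 FPKM in si-152 (0.17). RELA, a subunit of NF-kB, stood at 26.7 and 22.8 FPKM against 30.8 and 27.0 FPKM (0.22). In both genes the si-152 libraries were above the si-NC libraries. This order occurred in 4 of the 20 genes and the opposite order in 2, beside 16.5% and 13.9% of all tested genes.

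**Figure D5:**
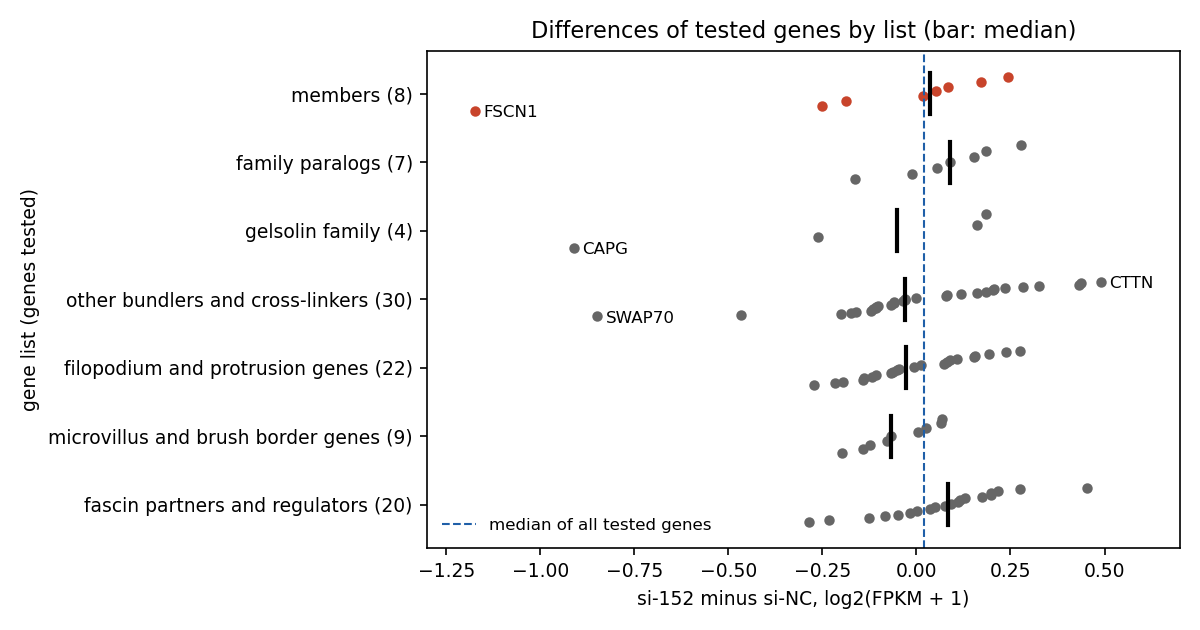
Each point is a tested gene, placed by its difference between si-152 and si-NC on the log2(FPKM + 1) scale (horizontal axis), in rows by gene list with the number tested in brackets, and black bars are list medians. FSCN1 at -1.17, CAPG at -0.91 and SWAP70 at -0.85 lie farthest to the left, and the list medians lie between -0.07 and 0.09 around the median of all tested genes, 0.02. Scaling every library to the same summed FPKM moved the median of all tested genes to 0.11 and turned each of the 4 negative list medians positive.

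The genes whose levels over the 4 libraries were most like those of FSCN1 were found by the root mean square distance between centered log2(FPKM + 1) profiles, over the 5566 tested genes with a mean of at least 10 FPKM. This likeness uses the values that selected FSCN1 and is a description over 4 libraries. The nearest was MYL12B, a regulatory light chain of non-muscle myosin, at a distance of 0.106. It stood at 300.2 and 375.3 FPKM in si-NC against 136.4 and 177.9 FPKM in si-152. MYL12A, nearly identical to it in sequence, was at a distance of 0.121, after CCNH, with 251.5 and 298.4 FPKM against 120.2 and 158.2 FPKM. Reads can be shared between MYL12A and MYL12B, so how the level divides between them is uncertain. CCNH, a cyclin of the kinase that activates cell cycle kinases, came second with a distance of 0.115 with 47.9 and 50.0 FPKM against 21.3 and 28.8 FPKM. CLIC3, a chloride channel family protein, and DOHH, an enzyme that modifies a translation factor, were at 0.164 and 0.175. None of the relatives was among these nearest genes. Of them, PLS3 came first at a distance of 0.550 (place 1640), followed by EPS8 at 0.552 (place 1678). FLNA came last at 0.765 (place 5222). ACTN4 and VIL1 were not in this order because of their low level.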

How the data were processed

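RNA from HCT116 cells was sequenced in 2 si-NC and 2 si-152 libraries. Each library had its own deposited table of 19974 gene rows. The deposited values carry no unit name and were taken to be FPKM because they are decimal, hold exact zeros and sum differently in each library. The submitters' processing notes name Trimmomatic, TopHat, HISAT2, HTSeq, DESeq and GRCh38, without versions or roles. Read depth is unknown, so no counting interval could be given. Date-like symbols numbered 28 and repeated symbols 2.

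The 9 genes and the gene lists were chosen with earlier results of these data known. A pseudocount of 1 was added, and genes that reached 1 FPKM in 2 or more libraries entered limma 3.58.1, run under R 4.3.3 (mean-variance trend, no block, Benjamini-Hochberg adjustment). The study tested counts, which were not used here. Besides all 9 genes and the paralogs, 1 of which is counted but not reported here, the text names from each list up to 4 genes with the smallest unadjusted p under 0.05, or, where fewer than 2 passed, the 2 with the highest level, and the 5 nearest profiles. The 3′ UTRs were the longest of each gene in GENCODE v29 basic, searched on the transcribed strand only. Alternatives were another pseudocount, other filters, other scalings, a replicate block, no trend and each library left out. The seed of miR-4722-5p, the ratios within a library and the neighboring genes were added after the data were seen.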

Additional observations from a re-analysis of the deposited data

How the results depend on the processing

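The call of 0 relatives at an adjusted p under 0.05, and of 0 past p and fold, held under every alternative that kept all libraries. Over these alternatives 0 to 78 of all tested genes passed the adjusted threshold. A count of 0 among 7 is near that share and says little about the relatives. FSCN1 ranged from -1.19 to -1.09 over the alternatives that kept all libraries. Only the other pseudocount and the scalings could change its fitted difference. The number of tested genes with an adjusted p under 0.05, 2 as reported, was 1 with a pseudocount of 0.1, with no filter, with size factors, with quantile normalization and without the trend, and 0 with 1 FPKM required in every library, where 458 genes had an unadjusted p under 0.05. The labels do not say what a shared replicate number marks, so the libraries share only a number. Deviations of same-numbered libraries correlated at 0.52 across tested genes, which are not independent. With a replicate block 78 genes had an adjusted p under 0.05. In this balanced layout a block cannot change a fitted difference, so the value of -1.17 for FSCN1 was fixed in advance. The block also raised the number of genes with an unadjusted p under 0.05 in limma from 492 to 1893. Among the relatives the smallest adjusted p was then 0.296, for PLS3. FLNA followed at 0.297, EPS8 at 0.418 and ACTN1 at 0.451. The fitted differences of the relatives were the same with and without the block. Only the estimated spread and the p-values from limma changed, as they did over all tested genes.

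Quantile normalization turned ACTN4 to -0.0279 and moved the medians of filopodium and microvillus genes to -0.0539 and -0.0327, and size factors moved the latter to -0.0857. Scaling each library to the same sum of FPKM moved the median of all genes from 0.02 to 0.11. It gave 120 genes higher and 83 lower past p and fold, against 67 and 119 as reported, and medians of 0.19 for paralogs, 0.0604 for other bundlers, 0.0686 for filopodium genes, 0.0284 for microvillus genes, 0.18 for fascin partners and 0.0476 for the gelsolin family.

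With 1 library left out, the lone library is assumed to vary like the other group. PLS1 turned to -0.25 without si-NC replicate 2, LIMA1 to -0.0863 without si-NC replicate 2 and to -0.0318 without si-152 replicate 1, and ACTN4 to -0.43 without si-152 replicate 2. The ranges were -1.33 to -1.01 for FSCN1, -0.25 to 0.42 for PLS1, -0.47 to -0.0295 for PLS3, -0.33 to -0.0399 for EPS8, 0.0423 to 0.30 for ACTN1, 0.0380 to 0.45 for FLNA, -0.0863 to 0.19 for LIMA1 and -0.43 to 0.47 for ACTN4. Genes with an adjusted p under 0.05 numbered 39 to 71, those past p and fold 107 to 228 higher and 103 to 367 lower. List medians ranged from -0.0447 to 0.27 for paralogs, -0.12 to 0.18 for other bundlers, -0.0452 to 0.0646 for filopodium genes, -0.0859 to 0.12 for microvillus genes, -0.13 to 0.25 for fascin partners and -0.15 to -0.0242 for the gelsolin family. The cause was not tested for any of these shifts. Read depth is unknown, so counting error could not be separated from replicate spread, and 2 libraries per group leave intervals that reach past a 1.5-fold change for 5 of 7 relatives.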

Other observations

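Levels were also read for the genes beside FSCN1 on chromosome 7 and for genes grouped by their number of miR-185-3p matches. There were 4 genes with values whose bodies lie within 250 kb of FSCN1. In limma 0 of the 4 had an adjusted or unadjusted p under 0.05, beside 0.0178% and 4.38% of all tested genes. RNF216, a ubiquitin ligase gene 13392 bases away, stood at 9.32 and 7.30 FPKM in si-NC and at 10.8 and 8.60 FPKM in si-152 (difference 0.20). ACTB, which encodes beta-actin and lies 29039 bases away, stood at 683.7 and 790.2 FPKM against 752.0 and 979.7 FPKM (0.22). FBXL18 and TNRC18 had differences of -0.04 and 0.21.

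Among tested genes with an annotated 3′ UTR, the 8414 with no CAGCCCC had a median difference of 0.01 on the log2(FPKM + 1) scale. The 1591 genes with 1 match had a median of 0.05, the 642 with 2 or 3 had 0.08, and the 110 with at least 4, a class that holds FSCN1 and ACTN4, had 0.12. Of the last class, 26.4% of genes were lower in si-152, beside 47.7% of genes with no match. Median UTR length moved with the classes, from 1140 to 3960 bases, and median UTR GC content moved from 40.7% to 56.5%. Their part in these medians was not tested.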
